A study of Mus musculus with 2 samples.

Results

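Colony-stimulating factors, the FLT3 receptor and their receptors were followed by cell class in mouse gliomas with and without depletion of cells expressing CD169. The 8 genes taken were the ligands Csf1 and Csf2 and the receptor genes Csf1r, Csf2ra, Csf2rb, Csf2rb2, Csf3r and Flt3, and all were found by symbol among the 31053 genes of both count matrices. Colony-stimulating factors are secreted proteins that keep myeloid cells alive and direct their differentiation. CSF1R is a receptor tyrosine kinase that binds CSF1 and IL34 and on which microglia depend, and FLT3 is a related kinase on DC precursors and DCs that binds FLT3 ligand. The receptor for CSF2 (GM-CSF) pairs a ligand-binding alpha chain, encoded by Csf2ra, with a beta chain that signals and that IL3 and IL5 receptors share, whereas the receptor for CSF3 (G-CSF) is a homodimer known from neutrophils.

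Each library came from 3 pooled male C57BL/6 J mice of 8 to 12 weeks. WT mice and CD169-DTR mice, heterozygous for a knock-in that puts the human diphtheria toxin (DT) receptor at 1 copy of Siglec1, were injected intracranially with 100000 cells of the mouse glioma line GL261. Both groups received DT at day -1 and day 4 of tumor injection, so that WT mice were exposed to the toxin without its receptor. At 10 dpi, CD45.2+ propidium iodide-negative cells of the right hemisphere were sorted after Percoll separation and sequenced as 3' droplet libraries, 1 of WT and 1 of CD169-DTR. The libraries held 101808996 (WT) and 84065489 (CD169-DTR) unique molecular identifiers (UMIs), each UMI standing for 1 captured RNA molecule.

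A barcode counted as a cell from 500 UMIs on, unless over 17% of its UMIs were mitochondrial. There were 10363 such cells in WT (median depth 7614 UMIs) and 7693 in CD169-DTR (median depth 8008 UMIs). The libraries shared 21 cell barcodes. Clusters were named by marker genes, so each class name below means a class resembling that cell type, and 9430 WT and 6985 CD169-DTR cells fell into immune classes. Expression is given as UMIs per 1000000 UMIs of a class (CPM), WT before CD169-DTR. Log2 ratios are WT divided by CD169-DTR. With 1 library per group no test was possible and the spread between mice is unknown. Brackets hold 95% intervals that cover counting error only. For shares of cells in which a gene was detected, each cell was first thinned to 2000 UMIs, so that depth was equal, and cells under 2000 UMIs were left out. These were 373 of 9430 WT and 105 of 6985 CD169-DTR immune cells, with 151 of 2327 WT and 22 of 741 CD169-DTR macrophages among them.

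Siglec1, the gene that carries the knock-in, was lower in the CD169-DTR library in microglia, macrophages and DCs. Its level was 18.3 against 5.27 CPM in microglia, 37.4 against 12.2 CPM in macrophages and 7.62 against 2.92 CPM in DCs.

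The make-up of the immune cells differed between the libraries. Microglia were 47.3% of WT and 73.7% of CD169-DTR immune cells, macrophages 24.7% and 10.6%, DCs 12.8% and 3.49%, and T and NK cells together 8.65% and 4.35%. Summed over all immune cells, Csf1r was at 1338 against 1980 CPM and Csf3r at 139 against 184 CPM, both lower in WT. Flt3 was at 18.5 against 5.20 CPM and Csf2 at 2.44 against 0.618 CPM, both higher in WT. Shares of cell classes and levels within a class both enter these sums, so the levels below are given class by class. The plot of levels by class shows the 8 genes in 13 classes.

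**Figure D1:**
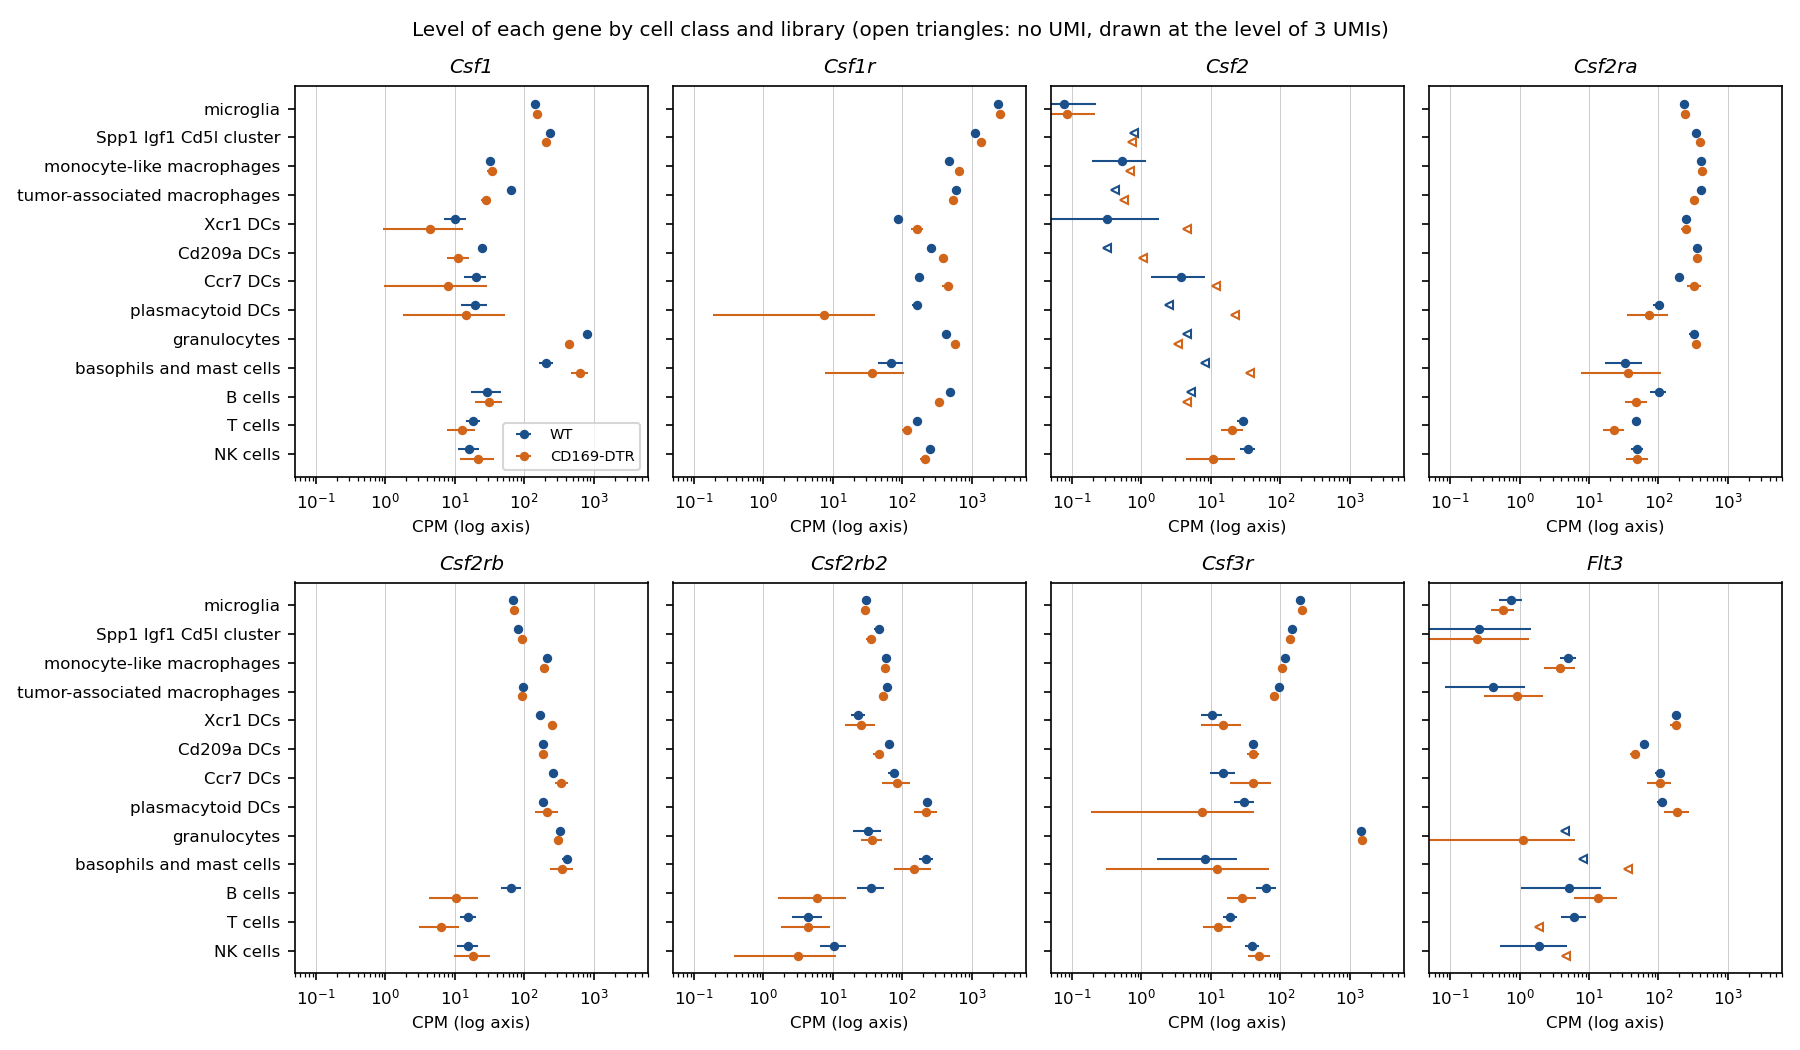
Level of the 8 genes (x axis, CPM on a log axis) in 13 immune classes (y axis) of the WT (blue) and CD169-DTR (orange) libraries, with 95% Poisson intervals cut off at the left edge where they pass it; open triangles mark classes with no UMI, drawn at the level of 3 UMIs. Csf1r peaked in microglia (2417 and 2585 CPM), Csf3r in granulocytes (1434 and 1491 CPM), and Flt3 in the 4 DC classes, at 46.3 to 184 CPM.

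Csf1 encodes CSF1 (M-CSF), the main ligand of CSF1R, and lies on the minus strand at chr3:107741048-107760469 (mm10, as are all positions here). Microglia held 63.4% of the Csf1 UMIs of WT cells and 78.1% of those of CD169-DTR cells, at 142 [138 to 145] against 153 [149 to 156] CPM. The log2 ratio was -0.11 [-0.16 to -0.06], and the share of microglia with a UMI was 17.7% against 17.2%. Levels per UMI were higher in granulocytes than in microglia, at 807 [740 to 879] CPM in WT and 436 [394 to 481] CPM in CD169-DTR. In granulocytes the log2 ratio was 0.89 [0.70 to 1.08] and the share of cells with a UMI 53.7% [45.7 to 61.5] against 36.2% [29.3 to 43.6]. Markers of granulocytes went the other way, since the 10 listed genes, led by S100a9, summed to 65957 CPM in WT and 129036 CPM in CD169-DTR granulocytes. Microglial markers did too, at 2500 against 3119 CPM. Those of monocyte-like macrophages (3654 against 2461 CPM) and of tumor-associated macrophages (1214 against 580 CPM) moved with Csf1. The part of these markers in the result was not tested. Granulocytes were 171 cells in WT and 196 in CD169-DTR. Basophils and mast cells, only 25 and 9 cells, had 208 against 638 [476 to 837] CPM of Csf1, the latter the highest level of the CD169-DTR library.

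Csf1 was also higher in WT in DCs and in macrophages as a whole, where the clusters differed. Macrophages had 44.5 [41.5 to 47.7] against 31.0 [27.6 to 34.7] CPM (log2 ratio 0.52 [0.33 to 0.72]). In cells with no UMI of 7 of the 8 listed microglial markers, 1149 in WT and 216 in CD169-DTR, it was 0.04. These were 49.4% and 29.1% of the class, at median depths of 5777 and 8385 UMIs, against 7161 and 11710 UMIs in all macrophages. In macrophages with at most 0.1% of UMIs in those markers Csf1 was at 40.2 against 23.4 CPM. The tumor-associated macrophages, a cluster led by Gpnmb and Fabp5, had 63.5 against 28.5 CPM (log2 ratio 1.16 [0.89 to 1.43]). In the monocyte-like macrophages the levels were 32.2 and 34.0 CPM, with a log2 ratio of -0.08 [-0.36 to 0.21]. This class pools a cluster led by Clec4e and F10, at 36.7 and 39.5 CPM, with a cluster led by Ear2 and Adgre4, at 5.53 against 20.4 CPM (log2 ratio -1.88 [-3.16 to -0.74], from 9 and 26 UMIs). A single WT cell held 74 of the 466 Csf1 UMIs of tumor-associated macrophages. Cells of this class also differed in depth, their median depth being 4915 UMIs in WT cells and 16469 UMIs in CD169-DTR cells, and in general, since 65.3% of all genes tested there were higher in WT. In cells with none of those 7 markers, 466 in WT and 46 in CD169-DTR, the log2 ratio was -0.19, from 74.4 and 85.0 CPM. These cells held 177 and 40 Csf1 UMIs, at median depths of 3693 and 9098 UMIs. In the 924 and 284 cells with at most 0.1% of UMIs in those markers it was 1.19, from 55.3 and 24.2 CPM. The 8 listed markers of monocyte-like macrophages moved with Csf1 in the tumor-associated class. All 8 were detected in both libraries, and they summed to 3105 CPM in WT and 1161 CPM in CD169-DTR, with Ly6c2 the most abundant at 1160 and 312 CPM. Their part in the result was not tested. DCs had 21.1 [18.7 to 23.6] against 9.81 [6.91 to 13.5] CPM of Csf1 (log2 ratio 1.10 [0.61 to 1.64]), the latter from 37 UMIs. Markers of monocyte-like macrophages moved with it in DCs, at 4920 against 2931 CPM, and their part was not tested.

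Csf1 varied between microglial clusters, and so did its ratio between the libraries. The ratio was lowest in the cluster led by Mki67 and Top2a, genes of dividing cells, at 116 against 171 CPM (log2 ratio -0.56 [-0.70 to -0.42]), and highest in the cluster led by Sox4 and P2ry12, at 123 against 97.8 CPM (0.33 [0.07 to 0.59]). The cluster led by Il1a and Atf3, an interleukin 1 and an immediate early transcription factor gene, had the most, at 265 CPM in WT and 290 CPM in CD169-DTR. The cluster led by P2ry12 and Slc2a5, genes of homeostatic microglia, had the least, at 43.0 and 49.7 CPM. Csf1r ran the other way between these clusters. It was at 3794 and 3987 CPM in the P2ry12 cluster, and at 1617 and 1673 CPM in the Il1a cluster. A cluster led by Spp1, Cd5l and Igf1 that met no class name had 232 against 209 CPM of Csf1 and 1102 against 1350 CPM of Csf1r. Over the myeloid clusters of the ligand and receptor plot, the DC clusters had 87.4 to 450 CPM of Csf1r, the macrophage clusters 445 to 829 CPM and the microglial clusters 1617 to 3987 CPM.

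**Figure D2:**
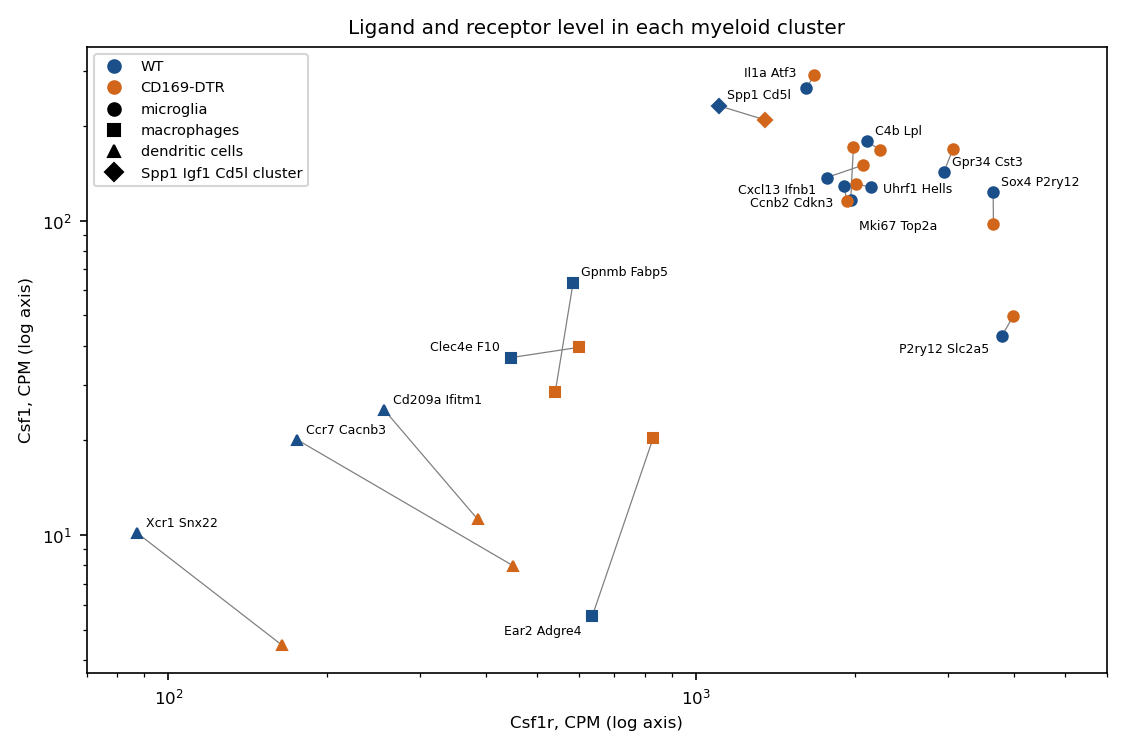
Csf1 (y axis, CPM, log axis) against Csf1r (x axis, CPM, log axis) in each microglial, macrophage and DC cluster and in the Spp1 Igf1 Cd5l cluster, labelled by 2 leading genes. A line joins the WT (blue) and CD169-DTR (orange) value of a cluster; the P2ry12 Slc2a5 cluster lies lowest in Csf1 among microglia (43.0 and 49.7 CPM) and highest in Csf1r (3794 and 3987 CPM).

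Il34, the second ligand of CSF1R, was almost absent from immune cells, with 3 UMIs in WT and 1 in CD169-DTR. It was found in pericytes and fibroblasts that had passed the sort, at 276 [225 to 336] CPM in 58 WT cells and 394 [317 to 485] CPM in 34 CD169-DTR cells.

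Csf1r lies on the plus strand at chr18:61100598-61132149. Microglia held 81.6% of its WT and 88.7% of its CD169-DTR UMIs. The level was 2417 [2401 to 2432] against 2585 [2571 to 2599] CPM (log2 ratio -0.10 [-0.11 to -0.08]), and 97.1% and 97.2% of thinned microglia had a UMI. The median log2 ratio of all genes tested in microglia was -0.04. As a background, NK cells clustered apart from other lymphocytes had 23.0 and 36.5 CPM, with a UMI in 4.58% and 5.00% of thinned cells. Before thinning their median depths were 5531 and 6432 UMIs, against 7434 and 7727 UMIs in microglia. A lymphocyte cluster led by C1qa and C1qc, complement genes of microglia and macrophages, had 1413 and 1409 CPM of Csf1r in 44 and 11 cells.

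Csf1r was lower in WT in macrophages, DCs and granulocytes (424 against 572 CPM). It was higher in WT in B cells (486 against 336 CPM, log2 ratio 0.53 [0.28 to 0.79]) and T cells (161 against 115 CPM, 0.48 [0.25 to 0.73]). Microglial markers were higher in WT in both, and their part was not tested. In granulocytes microglial markers moved with Csf1r, all 8 detected, at 2500 against 3119 CPM in sum, and their part was not tested. Macrophages had 517 [506 to 527] against 597 [582 to 612] CPM (log2 ratio -0.21 [-0.26 to -0.16]). The macrophage ratio was -0.49 without the doublets that Scrublet marked, -0.44 without the highest doublet scores and -0.41 in cells with none of those 7 microglial markers. Scrublet marked 320 WT but only 23 CD169-DTR cells, so its removal fell almost only on WT. Monocyte-like macrophages had 472 against 666 CPM (log2 ratio -0.49 [-0.56 to -0.43], with a median of -0.19 over all genes tested). Microglial markers moved with it there, at 1040 against 1509 CPM, and their part was not tested. In cells with none of those 7 markers Csf1r was at 388 against 550 CPM. Tumor-associated macrophages had 584 against 541 CPM (log2 ratio 0.11 [0.04 to 0.18], with a median of 0.16). This ratio turned to -0.24 in cells with at most 0.1% of UMIs in those 7 microglial markers and to -0.02 in cells with none. It was -0.43 without Scrublet doublets and -0.04 under median-ratio scaling. DCs had 209 [202 to 217] against 350 [332 to 370] CPM (log2 ratio -0.74 [-0.84 to -0.65]). The direction was the same in DCs led by Xcr1 (87.4 against 164 CPM), by Cd209a (256 against 385 CPM) and by Ccr7 (176 against 450 CPM), the last with 15 cells in CD169-DTR. Microglial markers moved with it. All 8 were detected in DCs of both libraries, and they summed to 1092 CPM in WT and 1589 CPM in CD169-DTR. In DCs with at most 0.1% of UMIs in those 7 microglial markers, Csf1r was at 115 against 229 CPM (log2 ratio -0.99). In DCs with none of them, 627 in WT and 82 in CD169-DTR, it was at 102 against 133 CPM (log2 ratio -0.38). Markers of tumor-associated macrophages also moved with Csf1r, at 2288 against 2994 CPM in DCs and 2620 against 3485 CPM in those led by Cd209a. They went the other way in DCs led by Xcr1 (1905 against 1645 CPM) and by Ccr7 (1112 against 1028 CPM). The 8 listed markers of monocyte-like macrophages went the other way, at 4920 CPM in WT and 2931 CPM in CD169-DTR DCs. The part of these lists in the result was not tested.

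A shallow cluster led by hemoglobin genes was left out of the immune classes, although it carried Csf1r at 3337 and 3557 CPM in 248 WT and 161 CD169-DTR cells. All 8 microglial markers were detected there, at 16219 and 16167 CPM in sum, close to the 17784 and 18323 CPM of microglia. Adding it to microglia left the Csf1r log2 ratio at -0.09.

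Csf2 encodes GM-CSF, a cytokine of activated lymphocytes, and lies on the minus strand at chr11:54247271-54249667. It was the rarest of the 8 genes, with 206 UMIs in 48 of 9430 WT immune cells and 43 UMIs in 15 of 6985 CD169-DTR immune cells. T and NK cells had 190 and 39 of these. A gamma-delta T cell cluster, led by Cd163l1 and Il17a, held 47.8% of all WT and 67.4% of all CD169-DTR Csf2 UMIs in 38 and 11 cells. Its levels were 366 [298 to 446] and 390 [261 to 560] CPM (log2 ratio -0.09 [-0.70 to 0.56]). Few cells carried them, since 9 of 38 WT cells held 99 UMIs, with up to 46 in 1 cell, and 2 of 11 CD169-DTR cells held 29, with 28 in 1 cell. In NK cells Csf2 was at 34.0 [26.6 to 42.8] against 10.9 [4.36 to 22.4] CPM (log2 ratio 1.65 [0.53 to 3.01]) from 72 and 7 UMIs. The share of NK cells with a UMI was 4.35% [2.34 to 7.32] against 2.38% [0.290 to 8.34], so the intervals of the shares overlap. For T and NK cells together the log2 ratio was 0.80 [0.30 to 1.33], and it was 2.22 without the cell with most Csf2 UMIs in each library (46 and 28 UMIs).

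**Figure D3:**
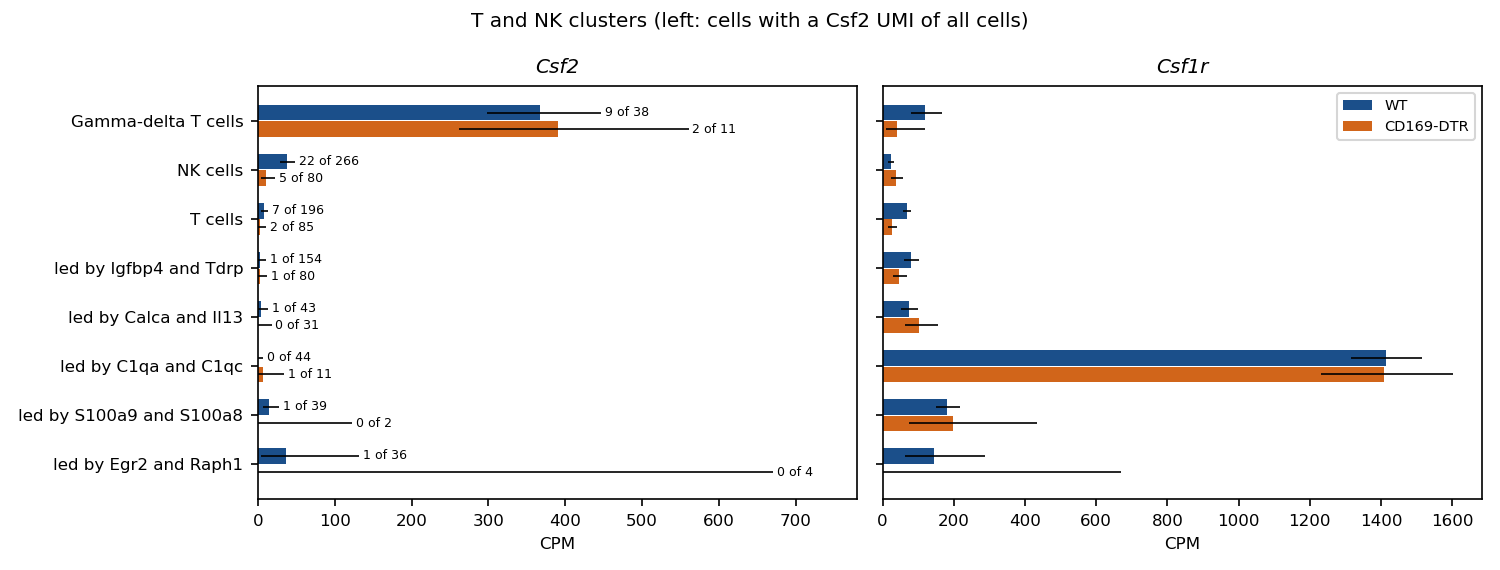
Csf2 (left) and, as a measure of microglial RNA, Csf1r (right) in the clusters of T and NK cells (y axis; x axis in CPM) of the WT (blue) and CD169-DTR (orange) libraries, with 95% Poisson intervals. Numbers beside the left bars are the cells with a Csf2 UMI of all cells of the cluster, and the gamma-delta T cells stand out at 366 and 390 CPM of Csf2 with 9 of 38 and 2 of 11 cells.

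Microglia had 3 Csf2 UMIs in 4465 WT cells and 4 in 5145 CD169-DTR cells, and granulocytes, B cells and plasmacytoid DCs had none in either library. For granulocytes 0 UMIs in 171 and 196 cells set a level of 3 UMIs, 4.54 and 3.33 CPM, as the limit, and the 95% Poisson intervals reached 5.59 and 4.09 CPM.

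Csf2ra, the alpha chain gene, lies on the minus strand at chr19:61223957-61228429. Csf2rb, the common beta chain gene, lies on the plus strand at chr15:78325752-78353847, and Csf2rb2, which encodes a beta chain specific to IL3 in mice, lies on the minus strand at chr15:78282507-78305721. The beta chain genes are 20030 bp apart, and their transcripts were 91.5% identical over 4668 aligned bases and 85.4% over the 467 aligned bases of their last 500. UMIs of one could therefore have been counted for the other, and the split between them is uncertain.

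The 300 bases around the start of 3 receptor genes are printed because, of the 6 promoters found, only these held GAGGAA on either strand. The myeloid factor PU.1, encoded by Spi1, is known to bind GAGGAA. Sequences run from 250 bases before to 50 after the start, 5′ to 3′ on the strand of the gene (RefSeq, GRCm38.p6), and capitals mark GAGGAA or its opposite-strand form TTCCTC. They are from chr19:61228369-61228668, chr15:78305672-78305971 and chr4:126024409-126024708 in turn.
Csf2ra: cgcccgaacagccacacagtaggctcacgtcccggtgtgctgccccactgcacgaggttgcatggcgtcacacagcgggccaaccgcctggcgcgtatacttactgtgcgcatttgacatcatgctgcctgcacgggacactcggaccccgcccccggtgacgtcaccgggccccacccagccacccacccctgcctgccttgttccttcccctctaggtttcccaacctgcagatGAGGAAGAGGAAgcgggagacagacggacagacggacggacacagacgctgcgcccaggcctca
Csf2rb2: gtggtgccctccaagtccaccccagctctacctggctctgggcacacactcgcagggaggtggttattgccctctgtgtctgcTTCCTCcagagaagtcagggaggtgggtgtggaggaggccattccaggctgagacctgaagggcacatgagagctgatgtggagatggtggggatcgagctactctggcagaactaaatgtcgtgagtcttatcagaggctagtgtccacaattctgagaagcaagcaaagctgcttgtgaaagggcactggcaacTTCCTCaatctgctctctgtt
Csf3r: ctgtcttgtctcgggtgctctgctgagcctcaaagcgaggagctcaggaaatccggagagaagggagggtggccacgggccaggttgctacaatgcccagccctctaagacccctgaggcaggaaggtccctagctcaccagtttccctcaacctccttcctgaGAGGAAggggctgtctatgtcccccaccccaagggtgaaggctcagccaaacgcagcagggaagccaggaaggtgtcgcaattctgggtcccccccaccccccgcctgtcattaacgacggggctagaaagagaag
RefSeq promoters were found for 6 of the 8 genes, without Csf1r and Csf2rb. Csf2ra and Csf2rb2 held the motif at 2 places each, Csf3r at 1, and Csf1, Csf2 and Flt3 at none. Of 32851 promoters of this length, 28.3% held it at least once and 4.82% at 2 places or more, so a match describes the letters and marks no binding site. Spi1 itself was at 396 and 409 CPM in microglia and at 561 and 470 CPM in macrophages.

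Csf2ra was found in macrophages, DCs, granulocytes and microglia. Macrophages had 410 [401 to 419] against 370 [358 to 382] CPM (log2 ratio 0.15 [0.09 to 0.21]), and 57.4% against 52.4% of cells with a UMI. Within macrophages it was at 413 against 322 CPM in the tumor-associated class and at 408 against 428 CPM in the monocyte-like class. DCs had 317 and 336 CPM, granulocytes 321 and 344 CPM, and microglia 230 and 237 CPM. The macrophage ratio was -0.01 in cells with none of the 7 microglial markers. Among microglial clusters Csf2ra was low in those led by P2ry12 and Slc2a5 (127 and 147 CPM) and by Sox4 and P2ry12 (131 and 142 CPM), and highest in the cluster led by Cxcl13 and Ifnb1, at 303 and 307 CPM. T and NK cells had 48.1 and 30.7 CPM.

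Csf2rb was at 407 and 356 CPM in basophils and mast cells and at 329 and 303 CPM in granulocytes. Macrophages had 170 [164 to 176] against 138 [131 to 146] CPM (log2 ratio 0.29 [0.20 to 0.39]). This ratio was 0.07 when the macrophage clusters were given the same weights in both libraries, and the clusters differed, with 217 against 194 CPM in monocyte-like and 97.4 against 93.0 CPM in tumor-associated macrophages. Microglia were lower, at 68.3 and 71.6 CPM. DCs had 189 and 207 CPM (log2 ratio -0.13 [-0.25 to -0.02]), with 166 against 255 CPM in DCs led by Xcr1 (183 and 32 cells). In DCs led by Cd209a, 869 and 197 cells and the largest DC class, the levels were 184.1 and 183.5 CPM.

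Csf2rb2 stood highest in plasmacytoid DCs, at 225 [199 to 254] CPM in 102 WT cells and 221 [149 to 316] CPM in 11 CD169-DTR cells, and in basophils and mast cells, at 221 and 147 CPM, levels not apart beyond counting error. Macrophages had 59.8 and 54.5 CPM (log2 ratio 0.14 [-0.01 to 0.29]) and microglia 29.9 and 29.4 CPM. The order of classes differed from that of Csf2rb, since granulocytes had 31.8 and 36.6 CPM of Csf2rb2.

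The share of cells with both Csf2ra and Csf2rb was largest in granulocytes. After thinning to 2000 UMIs it was 21.3% [15.3 to 28.4] in the WT library, against 17.3% [12.1 to 23.5] in CD169-DTR. The share was 16.1% and 16.0% in monocyte-like macrophages, 10.3% and 7.03% in tumor-associated macrophages, 11.8% and 12.1% in DCs and 4.36% and 4.08% in microglia. It was 0.133% and 0.339% in T and NK cells. The shares of the libraries have overlapping intervals in each of these classes. Undetected chains cannot be told apart from absent ones at this depth. Basophils and mast cells, with Csf2rb in 47.8% and 44.4% of 23 and 9 cells, had Csf2ra in 1 and 0 cells.

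**Figure D4:**
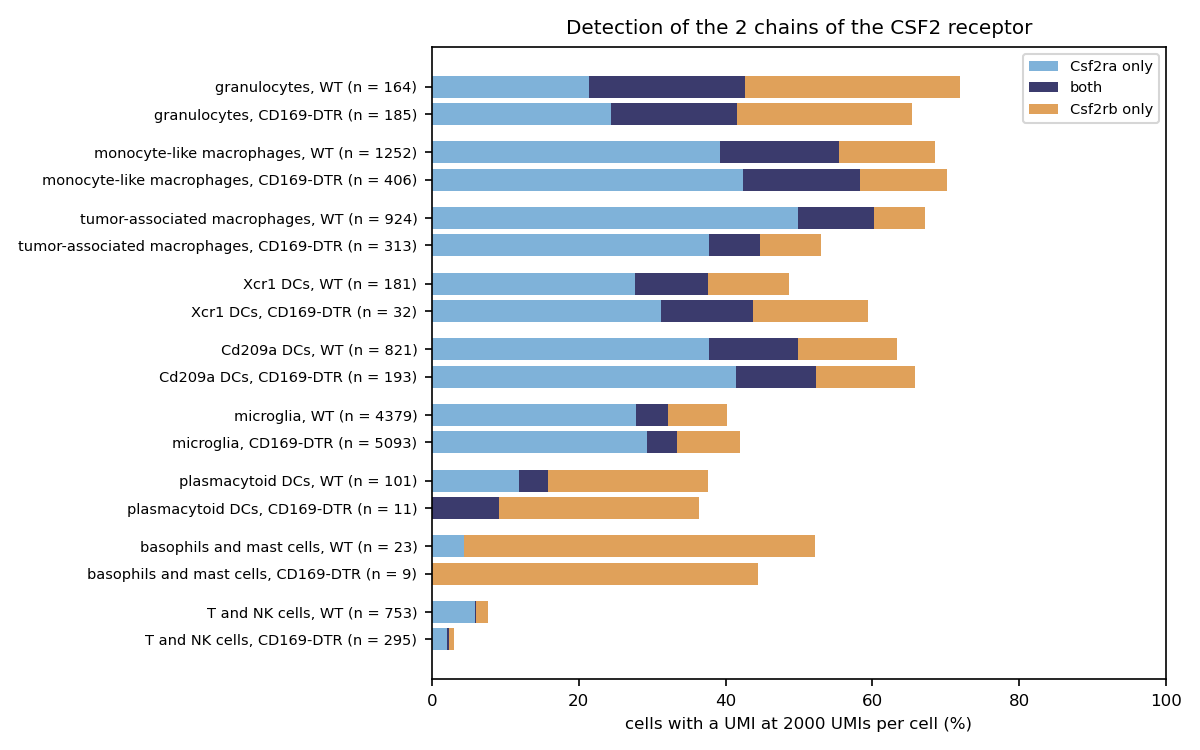
Share of cells (x axis, percent, after thinning to 2000 UMIs) with a UMI of Csf2ra only, of both chains or of Csf2rb only, in 9 classes (y axis) of both libraries with n cells each. Granulocytes and monocyte-like macrophages have the largest shares with both chains (16.0% to 21.3%), T and NK cells have 0.133% and 0.339%, and basophils and mast cells none.

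Csf3r, the G-CSF receptor gene, lies on the plus strand at chr4:126024550-126044440. Granulocytes had 1434 [1344 to 1528] CPM in WT and 1491 [1412 to 1573] CPM in CD169-DTR (log2 ratio -0.06 [-0.18 to 0.06]), and 87.8% and 86.5% of cells with a UMI. Among the named immune classes microglia came next, at 195 [190 to 199] and 204 [200 to 208] CPM with a UMI in 34.2% and 34.8% of cells. The hemoglobin-led cluster, outside these classes, had 225 and 280 CPM. Granulocyte markers in the microglia differed between the libraries, with 9 of 10 detected and 6.66 CPM in sum in WT, where Ly6g was at 0, against 10 of 10 and 299.9 CPM in CD169-DTR. S100a9 was the most abundant, at 2.72 and 123 CPM, and the part of these markers in the microglial values was not tested. Their number made them the main holder of Csf3r UMIs, with 7594 of 11981 in WT and 9776 of 12999 in CD169-DTR cells. Macrophages had 107 against 92.1 CPM (log2 ratio 0.22 [0.11 to 0.34]), but their Ear2 Adgre4 cluster had 109 against 146 CPM (-0.42 [-0.73 to -0.12]). Markers of monocyte-like macrophages were also higher in WT macrophages, at 7852 against 4015 CPM. Their part in the macrophage ratios of Csf3r, Csf1, Csf2ra and Csf2rb was not tested. DCs had 31.1 and 35.8 CPM. In the separate NK cluster, as a background, 0.382% and 1.25% of cells had a UMI. Csf3, the ligand gene, had 14 UMIs in WT and 21 in CD169-DTR immune cells. Monocyte-like macrophages held 12 and 9 of these, and granulocytes 0 and 11.

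Flt3 lies on the minus strand at chr5:147330741-147400489. DCs had 93.3 [88.3 to 98.5] against 73.2 [64.8 to 82.3] CPM (log2 ratio 0.35 [0.16 to 0.54]), while 13.7% and 13.3% of their cells had a UMI after thinning. The log2 ratio was 0.01 when the libraries were merged without integration and -0.32 in cells with none of the 7 microglial markers. Of the 3 DC clusters, that led by Xcr1, a receptor gene of type 1 conventional DCs, had most, at 179 and 176 CPM, followed by DCs led by Ccr7, a gene of migratory DCs, at 105 and 104 CPM. DCs led by Cd209a had 62.3 [57.4 to 67.6] against 46.3 [38.8 to 54.9] CPM (log2 ratio 0.43 [0.15 to 0.71]). Plasmacytoid DCs had 112 [93.9 to 133] and 184 [119 to 272] CPM, the latter from 25 UMIs in 11 cells. Microglia had 0.743 and 0.584 CPM and monocyte-like macrophages 5.05 and 3.88 CPM. T and NK cells had 29 Flt3 UMIs in 12 WT cells, 4.67 CPM, and none in CD169-DTR, where 3 UMIs would be 1.35 CPM. Of the 29, 24 were in a lymphocyte cluster led by S100a9 and S100a8, granulocyte genes, and with the antigen-presentation genes H2-Aa, H2-Eb1 and Cd74 and the myeloid gene Lyz2 also among its 10 leading genes. It had 39 WT and 2 CD169-DTR cells. Flt3l, the ligand gene, was at 41.6 and 45.2 CPM in T cells and at 48.6 and 82.2 CPM in NK cells.

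How many of the 8 genes differed 2-fold or more between the libraries varied with the class. Genes with at least 20 UMIs over both libraries and at least 1 in each were counted. In microglia none of 7 did, where 2.72% of 13624 genes tested did, and in macrophages none of 7, where 5.3% of 11758 did. In DCs 1 of 7 did (Csf1), against 6.57% of all genes, and in granulocytes 0 of 6, against 12%. Csf1 in granulocytes (0.89) was past 2-fold under some alternatives only. These were median-ratio scaling (1.02), without Scrublet doublets (1.09), without the highest doublet scores (1.13), without cells holding a marker UMI of another class (1.06) and in cells with no UMI of the 7 microglial markers (1.30). In granulocytes with at most 0.1% of UMIs in those markers Csf1 was under 2-fold, at 891 against 464 CPM. In tumor-associated macrophages 1 of 6 did (Csf1, though its log2 ratio was 0.998 under median-ratio scaling and -0.19 in cells with no UMI of the 7 microglial markers), against 6.4%, and in monocyte-like macrophages 0 of 7, against 6.71%. The median log2 ratio of the members was -0.07 in microglia and 0.22 in macrophages, beside -0.04 and -0.05 over all genes tested. In T and NK cells together 0 of 7 did, against 6.93%. Csf2 there was past 2-fold in cells with no UMI of the 7 microglial markers, at 31.1 against 5.10 CPM, from 103 and only 6 UMIs. In cells with at most 0.1% of UMIs in those markers it was under 2-fold, at 35.2 against 18.7 CPM from 189 and 38 UMIs. In NK cells alone 2 of 7 did (Csf2 and Csf2rb2, the latter from 22 and 2 UMIs), against 7.35%. NK cells clustered apart from other lymphocytes had 4 and 0 UMIs of Csf2rb2. Microglial (1841 against 1453 CPM), monocyte-like (1446 against 752), tumor-associated (435 against 248) and granulocyte markers (461 against 240) were higher in WT NK cells. T cell markers were lower there, at 783 against 972 CPM. In DCs led by Xcr1 and by Cd209a 1 of 7 did (Csf1 in both, from 32 and 3 UMIs in the former), against 8.28% and 6.8%, and in the Spp1 Igf1 Cd5l cluster 0 of 6, against 2.95%. In B cells 4 of 6 did, all higher in WT, against 10.5%. These were Csf2ra, Csf2rb, Csf2rb2 and Csf3r in 76 WT and 124 CD169-DTR cells, and microglial markers, 8 of 8 detected, were also higher in the WT B cells, at 3321 against 2437 CPM. So were the markers of monocyte-like macrophages, at 3365 against 892 CPM with 8 and 7 of 8 detected and Plac8 the most abundant, and those of tumor-associated macrophages, at 733 against 324 CPM with 6 and 5 of 7 detected. In T cells 2 of 7 did (Csf2ra and Csf2rb), against 8.42%, with microglial markers at 1146 against 777 CPM, monocyte-like markers at 1940 against 1184 CPM and tumor-associated markers at 502 against 178 CPM. Flt3, with 29 and 0 UMIs in T and NK cells and 25 and 0 in T cells alone, had no ratio and is outside these counts, though it too was higher in WT. Smaller myeloid classes were not counted. In DCs led by Ccr7 (154 and 15 cells) Csf1r (-1.36 [-1.68 to -1.03]), Csf3r (-1.41 [-2.52 to -0.18]) and Csf1 (1.33 [-0.64 to 4.44]) were past 2-fold. So were Csf1r (4.44) and Csf3r (2.04) in plasmacytoid DCs, each from 1 CD169-DTR UMI. Csf1 was too in basophils and mast cells (-1.62 [-2.15 to -1.08], 25 and 9 cells). The part of microglial, macrophage and granulocyte RNA in these values was not tested. The plot of ratios shows these values for 7 myeloid classes.

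**Figure D5:**
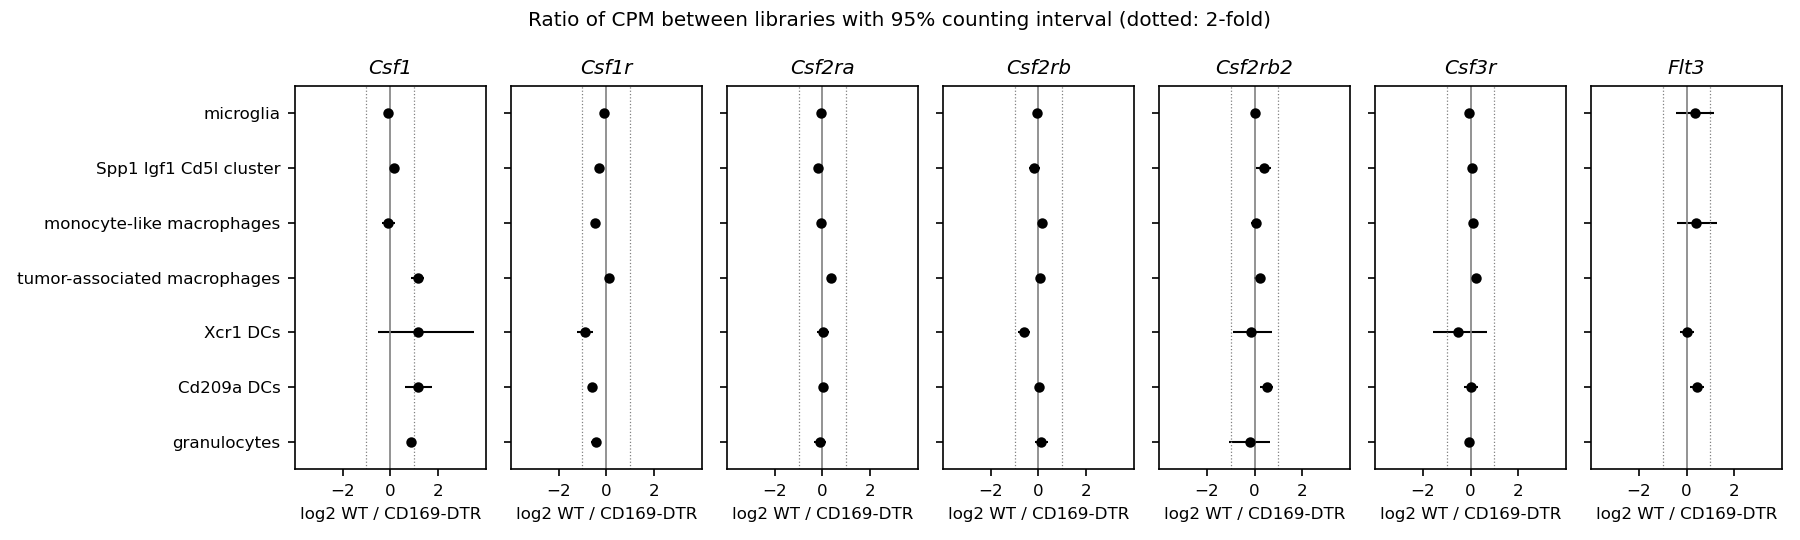
Log2 ratio of CPM, WT over CD169-DTR (x axis), with 95% counting intervals for 7 genes in 7 classes (y axis); genes with under 20 UMIs or with 0 UMIs in a library are not drawn, and dotted lines mark 2-fold. Csf1 is past 2-fold in tumor-associated macrophages (1.16, but 0.998 under median-ratio scaling and -0.19 with no UMI of the 7 microglial markers) and in both DC classes drawn (1.18, from 32 and 3 UMIs with an interval of -0.50 to 3.53, and 1.15). Csf1r lies below 0 in all classes drawn but tumor-associated macrophages (0.11, and -0.04 under median-ratio scaling).

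Other genes of these pathways were taken as 5 lists of 57 genes. Of all genes tested, 44.4% were higher in WT in macrophages, 38.1% in microglia and 47.2% in DCs. Of 3 other ligand genes measured in macrophages, 2 were higher in WT, and of 3 other receptor genes 3 were, none past 2-fold. In microglia 0 of 3 ligand and 2 of 3 receptor genes were higher in WT, none past 2-fold. Of the 12 feedback and target genes of STAT5 and STAT3, 10 were higher in WT macrophages and 1 was past 2-fold, with a median log2 ratio of 0.39 beside -0.05 over all genes. Socs1, a feedback inhibitor of JAK kinases, was at 97.7 against 40.8 CPM (log2 ratio 1.26 [1.10 to 1.42]), Osm, a cytokine gene, at 206 against 131 CPM, and Pim1, a kinase gene, at 524 against 392 CPM. Myc went the other way, at 16.0 against 25.4 CPM (-0.67 [-0.92 to -0.42]). The 8 listed markers of monocyte-like macrophages were also higher in WT macrophages, all 8 detected, at 7852 against 4015 CPM in sum with Plac8 the most abundant (3076 and 1386 CPM). Their part in the values of this and the other lists in macrophages was not tested. Several of these target genes also answer to interferons and other cytokines. In microglia 5 of the 12 were higher in WT, none past 2-fold, with a median of -0.15 beside -0.04. In DCs 7 of 12 were higher in WT, 1 past 2-fold, with a median of 0.16 beside -0.02, and Socs2, another member of the same inhibitor family, was at 76.4 against 20.9 CPM (1.87 [1.54 to 2.22]). DCs led by Ccr7 were 154 of 1206 WT and 15 of 244 CD169-DTR DCs. Markers of monocyte-like macrophages were at 4920 against 2931 CPM in DCs. The part of either in the DC values was not tested.

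Of 20 signal transducers, 12 were higher in WT macrophages and none past 2-fold, with a median of 0.05. Jak2, the kinase bound to the common beta chain, was at 63.1 against 34.2 CPM (0.88 [0.71 to 1.06]), while Stat5a was at 16.1 and 15.4 CPM and Stat3 at 108 and 107 CPM. In microglia Jak2 was at 19.0 and 18.8 CPM and 8 of 20 were higher in WT, none past 2-fold. In DCs 13 of 20 were, none past 2-fold. Of 12 differentiation factors measured in macrophages, 9 were higher in WT, none past 2-fold, with a median of 0.24 beside -0.05 over all genes. Cebpb, a factor of inflammatory myeloid cells, was at 2276 against 1528 CPM. The monocyte-like markers given above (7852 against 4015 CPM) moved with these factors too, and with Jak2. In microglia 4 of 12 were higher in WT and 1, Cebpe, was past 2-fold lower, from 8 and 28 UMIs. Cebpe is a gene of the granulocyte lineage, whose markers were higher in CD169-DTR microglia (6.66 against 299.9 CPM). In DCs 5 of 11 were higher in WT, none past 2-fold, with a median of -0.12 beside -0.02. There Batf3, required for type 1 conventional DCs, was at 107 against 71.8 CPM.

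Over 24 class profiles, from 14 classes with both libraries where large enough, the gene with the pattern most like Csf1r was Itgb5 (Pearson r of log2 CPM 0.98), and that most like Csf2rb2 was Csf2rb (0.91). Csf2 ran with Trdc, Tcrg-C4 and Tcrg-C1, constant genes of the gamma-delta T cell receptor (0.91, 0.91 and 0.90), Csf3r with Hcar2 (0.95), Flt3 with Grasp (0.94), Csf2ra with App (0.96), Csf2rb with Alox5ap (0.93) and Csf1 with Pilra (0.90). Profiles needed 20 cells, so gamma-delta T cells entered as 1 profile, of 38 WT cells. Trdc and Tcrg-C1 were among the 10 leading genes of that cluster. The profiles share libraries, depth and cell classification, so the values are descriptions. With the 14 WT profiles alone, another gene came first for Csf2ra (Tbc1d9, 0.96) and for Csf3r (C5ar1, 0.95).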

How the data were processed

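Gene by barcode UMI counts were deposited by the authors, who made them with Cell Ranger on mm10 (matrix header 3.1.0). They are raw counts, not normalised, of 1 pooled library per group. Barcodes with fewer than 500 UMIs or over 17% mitochondrial UMIs were left out. Libraries were integrated by anchors in Seurat 5.3.0 (R 4.3.3) over 50 dimensions and 1984 features, without the 8 genes or the wider lists among them, and clustered at resolution 1 over 30 dimensions. Clusters were named from marker lists. The members and lists were chosen with earlier results of these data known. No doublets were removed in the reported values. Scrublet marked 320 WT and 23 CD169-DTR cells (3.09% and 0.299%), where 8.29% and 6.15% were expected from the cell numbers. Both rates were below this, and removing marked cells took few from CD169-DTR. UMIs were summed per class and library in Python 3.11.15 with numpy 2.4.6 and scipy 1.17.1. Levels carry exact Poisson intervals, shares Clopper-Pearson intervals and ratios exact conditional binomial intervals, at 95%. Genes with at least 20 UMIs over both libraries and at least 1 in each entered the counts. The genes named are the 8 members, the genes of the 5 lists, the 3 genes most like each member in Pearson r of log2(CPM + 1), and the leading genes of clusters. The scripts were tested on simulated data. No tests between groups were made, and 12 planned and 6 later alternatives were tried. Positions are from GENCODE on mm10. Values of some single genes of the lists are not reported here.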

Additional observations from a re-analysis of the deposited data

Results flagged for a closer look

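Csf1 had ratios of opposite direction between classes, with a log2 ratio of WT over CD169-DTR of -0.11 in microglia against 0.52 in macrophages, 1.10 in DCs and 0.89 in granulocytes. Csf1r had a log2 ratio of 0.11 in tumor-associated and -0.49 in monocyte-like macrophages. Csf2ra was at 0.15 in macrophages and -0.04 in microglia, Csf2rb at 0.29 in macrophages and -0.13 in DCs, and Csf3r at 0.22 in macrophages and -0.07 in microglia. Each pair stood out because the single libraries of the classes differed in opposite directions. The differences between classes were not tested, since each group had 1 library. Some of these directions changed with the processing. Csf1r in tumor-associated macrophages was -0.24, -0.02, -0.43 and -0.04 under alternatives, and Csf2ra in macrophages was -0.01 in cells with no microglial marker UMI. Csf2ra in microglia equalled the median over all genes tested there (-0.04), and Csf2rb was at 184.1 and 183.5 CPM in the largest DC class. Within macrophages, the cluster led by Ear2 and Adgre4 went against the class, at -0.42 for Csf3r and -1.88 for Csf1.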

How the results depend on the processing

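All values are log2 ratios of WT over CD169-DTR unless said otherwise. No paired analysis was possible because each group had 1 library, and no library could be left out. Of 160 values for 10 planned ratios under the alternatives, 125 lay within the counting interval of the reported value and 35 outside it. Of 238 for other ratios 196 lay within and the rest outside. In all, 14 of these values changed sign. None of the 10 planned ratios was past 2-fold. In microglia, Csf1r (-0.10) was -0.053 at resolution 0.5 and under median-ratio scaling, -0.13 with equal weight per cell, -0.060 with equal cluster weights and -0.11 with the Spp1 Igf1 Cd5l cluster. Csf1 there (-0.11) was -0.19 without integration, -0.23 at resolution 0.5, -0.19 at resolution 2 and -0.026 with equal weight per cell. In macrophages, Csf1r (-0.21) was -0.49 without Scrublet doublets, -0.44 without the highest doublet scores, -0.13 at resolution 2, -0.16 under median-ratio scaling, -0.31 with equal weight per cell, -0.26 without cells holding a marker UMI of another class and -0.34 in cells with at most 0.1% microglial marker UMIs. In cells with no microglial marker UMI, Csf1r was -0.41, Csf1 (0.52) 0.043, Csf2ra (0.15) -0.0084, Csf2rb (0.29) 0.017 and Csf2rb2 (0.14) 0.38. Csf1 was 0.78 in cells with at most 0.1%. Without cells holding another class's marker, Csf2ra was 0.071 and Csf2rb 0.18. Csf2rb was 0.073 with equal cluster weights and Csf2rb2 0.47 with equal weight per cell. Csf3r in granulocytes (-0.06) was -0.25 under the order-of-magnitude cell rule, 0.11 without Scrublet doublets, 0.080 under median-ratio scaling, 0.16 without the highest doublet scores and 0.086 in cells with no microglial marker UMI. Flt3 in DCs (0.35) was 0.0087 without integration and -0.32 with no microglial marker UMI. Csf2 in T and NK cells (0.80) was 2.22 without its top cells and 2.61 with no microglial marker UMI, the latter from 103 and 6 UMIs. With at most 0.1% it was at 35.2 against 18.7 CPM. Csf1 in tumor-associated macrophages (1.16) was -0.19 with no microglial marker UMI, from 177 and 40 UMIs, and 1.19 with at most 0.1%. Differences in the share of cells with a UMI, in percentage points, with all UMIs in place of 2000 per cell, were 2.76 for Csf1 in microglia (0.478 when thinned), -4.58 for Csf2ra in macrophages (5.01), -11.6 for Csf2rb (1.78) and -9.75 for Csf2rb2 (0.274). For Flt3 in DCs the difference was 7.57 at 4500 UMIs (0.366). The cause of these changes was not tested. Planned settings gave no value, since no cluster was named as border-associated macrophages and none as tumor-associated macrophages at resolution 0.5. Doublets, free RNA and the spread between mice limit all values.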

Other observations

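Free RNA was estimated at 65.7 (WT) and 46.1 (CD169-DTR) UMIs per droplet, 0.854% and 0.574% of the UMIs of the median immune cell. At least 20 microglial marker UMIs were found in 69 of 892 WT and 19 of 428 CD169-DTR lymphocytes. The gamma-delta T cell cluster with most Csf2 had Il17a at 674 CPM in WT (182 UMIs) and 40.4 CPM in CD169-DTR (3 UMIs), while its Csf2 levels were 366 and 390 CPM. Plasmacytoid DCs had 190 Csf1r UMIs in 102 WT cells and 1 in 11 CD169-DTR cells, and their 8 microglial markers summed to 935 and 273 CPM.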
